A study of Mus musculus with 2 samples.

Results

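Podoplanin (Pdpn) is the surface protein by which the mesothelial cells of this study were sorted, and Clec1b encodes CLEC-2, its receptor on platelets. These genes were described here with 8 further genes of platelets and megakaryocytes: Pf4, Ppbp, Gp1bb, Gp9, Gp5, Treml1, Rgs18 and Itga2b. The 10 genes were taken by symbol from probe sets annotated with 1 gene, which gave 12 probe sets of 10 genes among 18193 genes measured. They were chosen with their differences between the arrays already known, so that their own differences are a description and were not tested. Gene expression was measured on Affymetrix arrays in livers of wild-type C57Bl6 mouse embryos at E12.5. One array carried RNA of mesothelial cells, the epithelium that covers the liver, sorted by FACS as Pdpn+ cells after digestion with trypsin-EDTA. The other carried RNA of liver cells of the same stage, strain and genotype, and whether Pdpn+ cells were taken out of that sample first is not stated. With 1 array in each group there was no replicate, and the number of embryos behind each RNA is not given either.

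Podoplanin is a small mucin-type membrane glycoprotein of mesothelium, lymphatic endothelium, lung alveolar cells and some stromal cells. On platelets and megakaryocytes it is bound by CLEC-2, a C-type lectin-like receptor whose cytoplasmic tail signals through the kinase Syk, the adaptor SLP-76 and phospholipase C gamma. Binding needs O-glycans on podoplanin, and in mouse embryos this contact is known for keeping blood vessels and lymphatic vessels apart. The fetal liver is a blood-forming organ at this stage and holds megakaryocytes, the large cells that release platelets.

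The median probe set intensity was 65.8 on the mesothelial array and 42.3 on the liver array. The 27 probe sets for bacterial transcripts, absent from these samples, read at most 16.2 and 10.5, and 76.8% and 82.4% of all probe sets exceeded that level. Each difference is the log2 intensity on the mesothelial array less the one on the liver array. All genes together had a median difference of 0.66, equal to 1.58-fold. A gene passed the intensity floor if its brighter value was no lower than the middle probe set of the array concerned, as 11905 genes did. These had a higher median difference, 0.91, but the all-gene median subtracted below is the 0.66 of all genes. The only spread that could be measured was that between probe sets of the same gene, a pooled SD of 0.70 on the log2 scale over 5220 genes, which leaves out how embryos, sorts and amplifications vary. The ratio of 3′ to 5′ probe sets was 2.30 and 1.49 for the Actb controls and 2.15 and 1.95 for the Gapdh controls on the mesothelial and liver arrays, and its part in the differences was not tested.

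Pdpn read 3877 on the mesothelial array and 100 on the liver array from its single probe set. It was thus 38.8-fold higher in the cells sorted for its protein, a log2 difference of 5.28, and 4.61 after subtracting the all-gene median. This ranked 14th from the top among the 11905 genes above the floor, a check on the sort and no result of its own. The liver value still stood 9.52-fold above the highest bacterial control of that array.

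Clec1b, the receptor gene, read 3227 on the mesothelial array and 677.3 on the liver array. It was 4.76-fold higher in the cells sorted for its ligand, a log2 difference of 2.25, and 1.59 after subtracting the all-gene median. That difference ranked 1462nd among genes above the floor, in the top 12.3%, whereas Pdpn stood in the top 0.118%. Both genes were brighter on the mesothelial array, and the fold was smaller for the receptor gene than for the ligand gene. In bulk RNA, fewer cells of a type and less RNA per cell cannot be told apart.

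**Figure D1:**
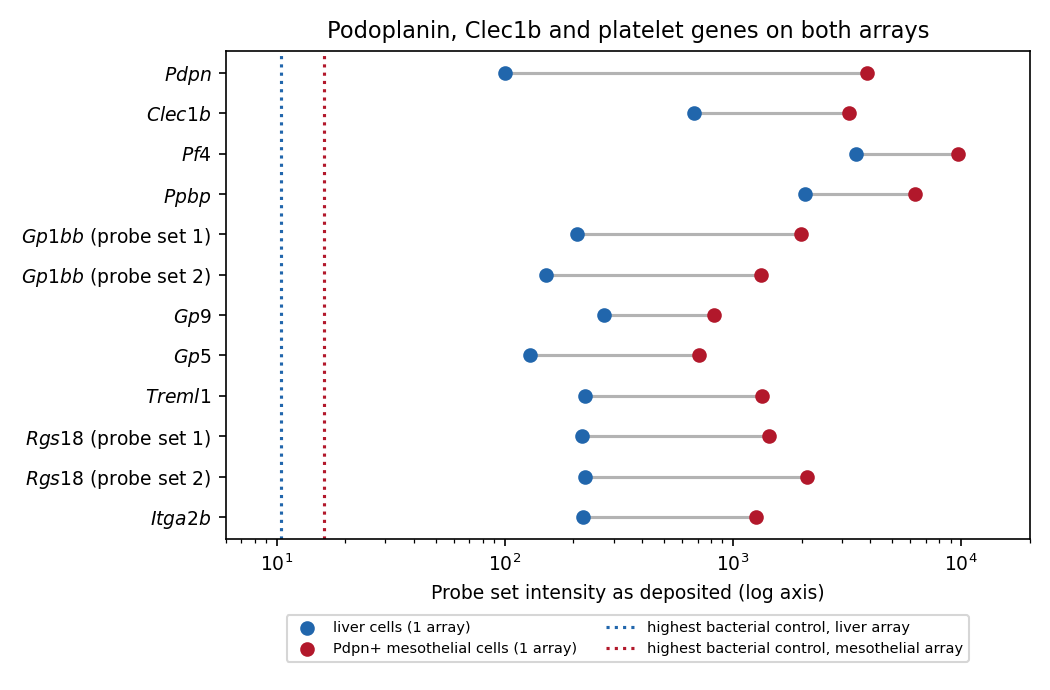
Intensity as deposited (log axis) of each of the 12 probe sets on the mesothelial array and on the liver array, 1 array each, with dotted lines at the highest bacterial control of each array. Every probe set was brighter on the mesothelial array, and the distance was greatest for Pdpn (3877 against 100) and smallest for Pf4 (9712 against 3479).

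As deposited, the platelet chemokine genes had the smallest differences of the 10, with Gp9 next to them. Under quantile normalization Gp9 was lowest at 0.76, below Ppbp at 0.98 and Pf4 at 1.05. Pf4 encodes platelet factor 4, a heparin-binding chemokine of alpha granules, and read 9712 against 3479, 2.79-fold higher in mesothelial cells. Ppbp encodes the precursor of another alpha granule chemokine, which attracts neutrophils, and read 6272 against 2078, 3.02-fold higher. Both genes lie on chromosome 5, with RefSeq starts 3917 bases apart in GRCm38.p6. Their log2 differences of 1.48 and 1.59 were 0.82 and 0.93 after subtracting the all-gene median, so both lay within 2-fold of the typical gene.

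The 3 glycoprotein genes encode subunits of the GPIb-IX-V complex, the platelet receptor for von Willebrand factor, and they did not differ by the same amount. Gp1bb, the beta subunit of GPIb, read 1984 against 206.7 on one probe set and 1321 against 152.2 on the other. These were 9.60-fold and 8.68-fold higher, log2 differences of 3.26 and 3.12 (SD 0.10 across its probe sets). Gp5 read 707.6 against 129.6, 5.46-fold higher. Gp9 read 824.2 against 272.6, which was 3.02-fold higher and close to the fold of Ppbp. The difference thus ran from 1.60 for Gp9 through 2.45 for Gp5 to 3.26 for Gp1bb. Gp9 and Gp1bb stood further apart than the pooled SD between probe sets.

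The remaining genes of the set lay between the chemokines and Gp1bb. Itga2b encodes the alpha IIb chain of the platelet fibrinogen receptor and read 1257 against 219.3, 5.73-fold higher. Treml1 encodes a receptor stored in alpha granules and carried to the platelet surface on activation, and it read 1347 against 225.8, 5.97-fold higher. Rgs18, a regulator of G protein signalling found in platelets, read 2104 against 224.0 on one probe set and 1440 against 218.8 on the other. Its log2 differences were 3.23 and 2.72, with an SD of 0.36. Every one of the 12 probe sets was brighter on the mesothelial array, and the lowest liver value among the 9 genes other than Pdpn, 129.6 for Gp5, stood 12.3-fold above the highest bacterial control.

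All 10 genes were above the floor and brighter by 2-fold or more on the mesothelial array, where 45.8% of all genes above the floor were so, and 3.86% were brighter by that much on the liver array. Since the genes were chosen on this contrast, nothing is read from that count. Of the 10, 7 were brighter by 4-fold or more, against 16.1% of genes above the floor. The median difference was 2.48 over the 10 genes, and 2.45 over the 9 without Pdpn. It was 0.66 over all genes and 0.91 over those above the floor. The count depends on how the arrays are scaled. It was 7 after centring each array on its median (23.9% of all genes above the floor), 8 after quantile normalization (20.8%), 7 after centring on the hybridisation controls (14.6%) and 10 after centring on reference genes (38.5%). Subtracting the all-gene median also left 7 genes past 2-fold, where 23.3% of genes above the floor were so on the mesothelial side and 9.62% on the liver side. Pf4, Ppbp and Gp9 were the genes that lost the 2-fold difference after median centring, where they differed by 0.84, 0.96 and 0.96. All 10 stayed above 0 in these 5 scalings, the lowest value being 0.41 for Pf4 with the hybridisation controls. That scaling removes the difference between the array medians of the 18 hybridisation controls, 1.08, whereas the median of their paired differences was 0.02. Sign changes given below for the hybridisation controls rest on the shift of 1.08. Among all genes past 2-fold in either direction, the share on the mesothelial side ran from 92.2% as deposited through 89.1% with reference genes, 72.1% with median centring and 65.3% with quantile normalization to 44.9% with the hybridisation controls.

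**Figure D2:**
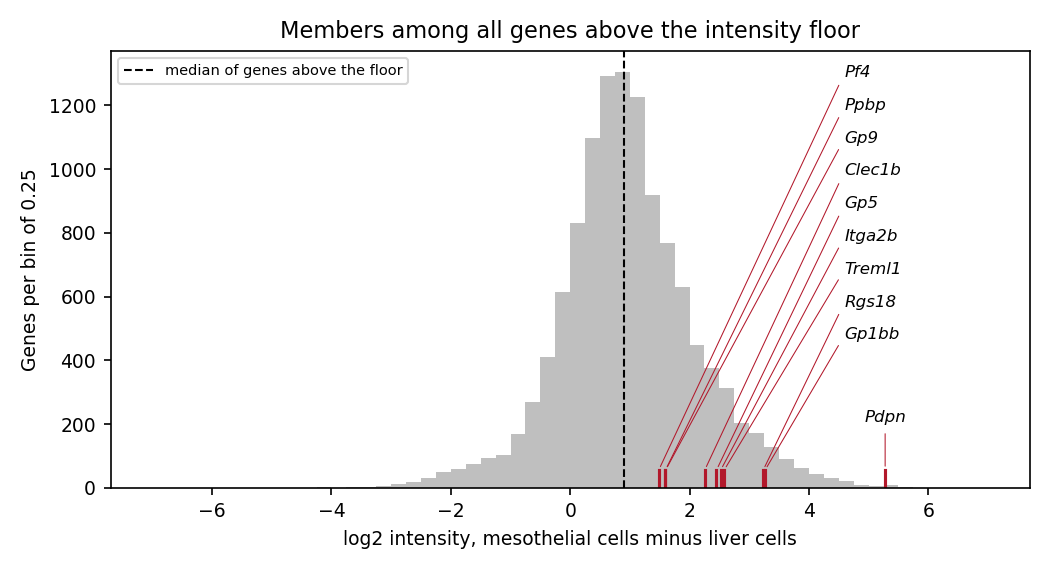
Histogram of the log2 difference, mesothelial minus liver, over the 11905 genes above the intensity floor, in bins of 0.25, with the 10 genes marked at the foot and the median of genes above the floor as a dashed line. All 10 lie to the right of that median of 0.91, from Pf4 at 1.48 to Pdpn at 5.28.

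**Figure D3:**
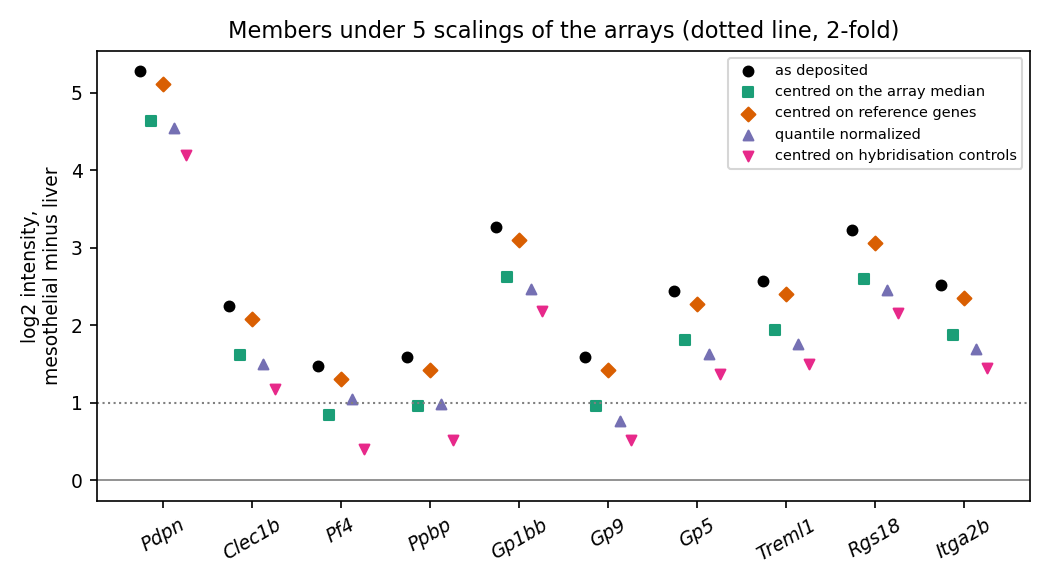
Log2 difference of each of the 10 genes under 5 scalings of the 2 arrays, with a dotted line at 2-fold. Pf4, Ppbp and Gp9 are the genes that drop below the line in some scalings, and the other 7 stay above it in all 5.

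The genes that act below CLEC-2 in platelets were mostly higher in mesothelial cells too. Of 12 measured, all above the floor, 9 were brighter by 2-fold or more on the mesothelial array and 0 on the liver array, against 45.8% and 3.86% of all genes above the floor, with a median difference of 1.76 (1.10 after subtracting the all-gene median). After that subtraction 6 were past 2-fold on the mesothelial side and 2 on the liver side, against 23.3% and 9.62% of all genes above the floor. Most of these genes are also expressed by macrophages and other blood cells. Syk, the kinase recruited to the receptor, read 599.4 against 165.3 and was 3.63-fold higher on its brightest probe set, but its 4 probe sets ran from -0.44 to 2.10 with a median of 0.91. Lcp2, which encodes SLP-76, was 3.17-fold and Plcg2, phospholipase C gamma, 3.89-fold higher. Lat, an adaptor, was 3.93-fold and Vav1, an exchange factor for Rac, 4.84-fold higher. Src, a kinase found in many cell types, was 13.4-fold higher from a probe set that can cross-hybridise, and its other probe set differed by 1.04. The Btk difference of 1.02 turned sign when the arrays were centred on the hybridisation controls. The adaptor gene Grap2 and the GTPase gene Rac2 lay the other way, with differences of -0.66 and -0.40. Lyn was not analysed here.

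Receptors by which platelets adhere and respond to agonists were mostly on the same side. Of 18 measured genes, 15 passed the floor, of which 13 were brighter by 2-fold or more on the mesothelial array and 0 on the liver array. The share over all genes above the floor was 45.8%. The median difference was 1.88 (1.22 after subtracting the all-gene median), and it stayed above 0 in each of the 5 scalings. After the subtraction 10 were past 2-fold on the mesothelial side, where 23.3% of all genes above the floor were. Gp6, the platelet collagen receptor, read 271.6 against 41.3 and was 6.58-fold higher. Its signalling partner Fcer1g, which is also expressed by myeloid cells, was 2.74-fold higher. F2rl2, a protease-activated receptor used by mouse platelets to sense thrombin, was 6.56-fold higher, and F2rl3, the thrombin receptor it assists, 4.49-fold. Itgb3, the partner chain of Itga2b, read 5611 against 1348 and was 4.16-fold higher. Pear1 was 5.94-fold higher (SD 1.27 across its probe sets). The ADP receptor genes parted: P2ry1 read 155.8 against 31.9, whereas P2ry12 was under the floor at 20.7 against 24.2. Gp1ba, Mpig6b and Adra2a were not analysed here.

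Genes of granule cargo were divided. Of 18 genes of granule contents and secretion, 16 passed the floor and 9 of these were brighter by 2-fold or more on the mesothelial array and 0 on the liver array, against 45.8% and 3.86% of all genes above the floor. The median was 1.41 (0.74 after subtracting the all-gene median, when 7 were past 2-fold, against 23.3% of all genes). Vwf, the ligand of the GPIb complex and also a product of endothelium, read 1932 against 248.7 and was 7.77-fold higher. The factor V gene F5, which hepatocytes also express, was 5.27-fold higher. Mmrn1, multimerin, was 5.85-fold higher, but its probe sets differed, with an SD of 1.60. Vipas39, needed for alpha granule formation, was 5.91-fold higher from a probe set that can cross-hybridise, and another of its 3 probe sets read -1.09. Selp, the adhesion molecule P-selectin of alpha granules, read 90.6 against 96.7 on its brightest probe set, but its 3 probe sets ran from -0.09 to 3.49 with a median of 0.97. The secretion gene Vamp8 read 1192 against 1426. Pdgfb was under the floor at 30.3 against 36.5, with a median of 0.45 over its probe sets.

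All 3 measured enzymes of platelet eicosanoid synthesis were 2-fold or more brighter on the mesothelial array, where 45.8% of all genes above the floor were. The enzymes had a median of 2.40 (1.74 after subtracting the all-gene median, when 3 were past 2-fold, against 23.3% of all genes). Ptgs1, also listed, was not analysed here. Alox12, platelet 12-lipoxygenase, read 1579 against 298.1, 5.30-fold higher, and both probe sets lay within an SD of 0.20. Pla2g4a, which releases arachidonic acid, was 5.42-fold and Tbxas1, thromboxane synthase, 3.65-fold higher. Genes of the proplatelet cytoskeleton and of integrin activation were 2-fold or more brighter on the mesothelial array for 12 of 14, and 0 were so in liver cells, against 45.8% and 3.86% of all genes above the floor. Their median was 1.30 (0.64 after subtracting the all-gene median, when 5 were past 2-fold, against 23.3% of all genes). Tubb1, the beta-tubulin of platelets, read 4189 against 1886, 2.22-fold higher. Rasgrp2, which switches on the integrin activator Rap1, was 4.48-fold higher (SD 0.09 across its probe sets). Flna and Actn1 were 10.8-fold and 5.55-fold higher, and both are actin-binding proteins of many mesenchymal and epithelial cells. Tuba4a, a widely expressed alpha-tubulin, differed by 0.02 and lay below 0 in the other 4 scalings.

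Transcription factors of megakaryocytes did not follow one side. Of 15 measured, all above the floor, 6 were brighter by 2-fold or more on the mesothelial array and 1 on the liver array. The shares over all genes above the floor were 45.8% and 3.86%. After subtracting the all-gene median 3 were past 2-fold on each side, against 23.3% of all genes above the floor on the mesothelial side and 9.62% on the liver side. The list median was 0.84 as deposited, 0.18 after that subtraction and -0.23 with the hybridisation controls. Fli1, an ETS factor that activates glycoprotein genes in megakaryocytes, read 758.9 against 228.4, 3.32-fold higher (SD 0.01 across its probe sets). Meis1 was 5.76-fold and Ets1 3.76-fold higher, but the SD across their probe sets was 1.70 and 1.14, and Ets1 read -0.23 without probe sets that can cross-hybridise. Gata1, which erythroid cells also need, read 2464 against 2014, and Tal1 read 2468 against 2121, differences of 0.29 and 0.22 not of one sign in all 5 scalings. Nfe2, required for platelet release and also expressed by erythroid cells, read 572.4 against 1581 and was 2.76-fold higher in liver cells. Gfi1b, a repressor needed in both lineages, differed by -0.50.

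Genes of the thrombopoietin pathway, which drives megakaryocyte growth, stood near the typical gene. Of 4 measured, all above the floor, 1 was brighter by 2-fold or more on the mesothelial array, below the 45.8% of all genes above the floor. This was Sh2b3, an inhibitor of the pathway, which read 455.8 against 227.5 and turned sign with the hybridisation controls. The median was 0.77 (0.11 after subtracting the all-gene median). Jak2, a kinase of cytokine signalling, read 1636 against 1184, and its other probe set differed by -0.76. Partners of podoplanin and enzymes of its O-glycans were alike in this. Of 10 measured, 2 were brighter by 2-fold or more on the mesothelial array and 0 on the liver array, below the 45.8% of all genes above the floor, with a median of 0.72 (0.06 after subtracting the all-gene median). Ezr, ezrin, which links podoplanin to actin, read 920.8 against 321.8 (SD 0.89 across its probe sets, median 0.89). Rhoa was 2.18-fold higher from a probe set that can cross-hybridise, while its 3 probe sets had a median of 0.49. C1galt1 and C1galt1c1, the enzyme and the chaperone that build core O-glycans, differed by 0.73 and 0.83. Both medians turned sign in some scalings, as did the differences of Jak2, C1galt1 and C1galt1c1.

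Lectin-like genes that share the natural killer gene complex with Clec1b were mostly dim. Clec1a, Clec12b and Olr1 were under the floor, at 25.7 against 27.4, 14.4 against 13 and 25.8 against 30.1. Clec7a, which encodes Dectin-1 of myeloid cells, read 88.1 against 75.6, a difference of 0.22 not of one sign in all 5 scalings. Clec2d was the only one of the 5 measured that was brighter by 2-fold or more on the mesothelial array, at 80.9 against 14. Of the 5, 2 were above the floor, and 45.8% of all genes above the floor were brighter by that much.

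**Figure D4:**
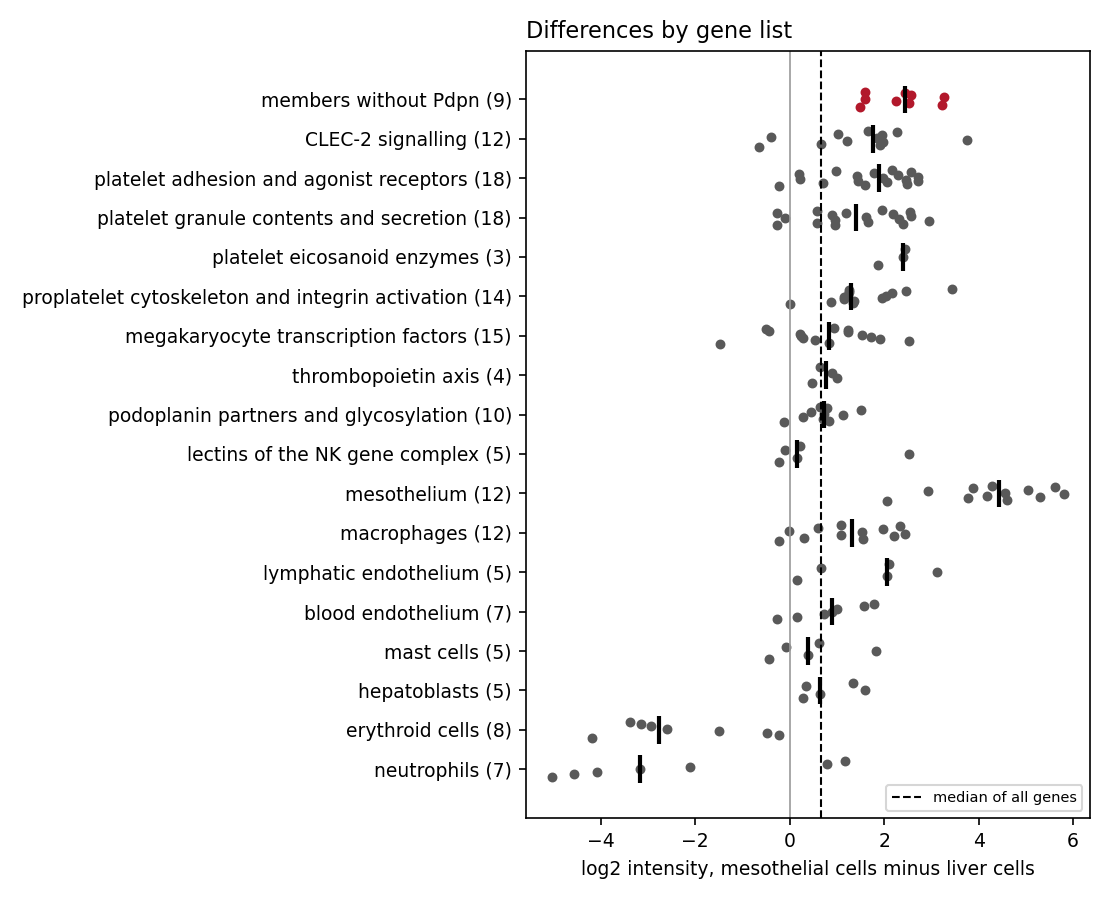
Log2 difference, mesothelial minus liver, of each measured gene in the lists used here, with the number of genes in brackets, a bar at each list's median and a dashed line at the median of all genes (0.66). The 9 genes other than Pdpn (median 2.45) lie to the right of the dashed line, as do most receptor and eicosanoid genes, whereas erythroid and neutrophil markers lie mostly to the left.

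Markers of the other cells in the preparation differed in direction. For comparison, the shares over all genes above the floor were 45.8% for the mesothelial side and 3.86% for the liver side as deposited. Of 12 mesothelial markers, 11 were above the floor and all 11 were brighter by 2-fold or more on the mesothelial array, with a median of 4.43 and summed intensities of 27123 against 3743. Upk3b was 56.1-fold and Aldh1a2 39.4-fold higher, Muc16 at least 32.0-fold because it was at control level in liver cells, and Alcam, at 4.19-fold, had the smallest difference. Erythroid markers lay on the other side: 6 of 8 were brighter by 2-fold or more on the liver array and 0 on the mesothelial array, with a median of -2.76 and sums of 13027 against 36779. Epb42 was 18.3-fold higher in liver cells, while Klf1 read 2494 against 2899. Of 6 neutrophil markers above the floor, 5 were brighter by 2-fold or more on the liver array, with sums of 2914 against 6704, and S100a9 read 89.4 against 2919. Mpo went the other way at 2552 against 1477 and made up most of the mesothelial sum, and Elane, under the floor, read 48.6 against 21.5. The median of the 10 genes stayed above 0 in all 5 scalings, and those of the erythroid and neutrophil markers stayed below 0.

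Macrophage markers stood on the same side as the platelet genes. Of 11 above the floor, 8 were brighter by 2-fold or more on the mesothelial array, where 45.8% of all genes above the floor were, with a median of 1.32 over 12 measured and sums of 8513 against 2576. After subtracting the all-gene median 4 were past 2-fold, against 23.3% of all genes, and the median was 0.65. Csf1r, the receptor for macrophage growth factor, was 5.47-fold higher (3 probe sets from 0.17 to 2.45) and Cd5l 5.06-fold higher, Cd68 read 257.9 against 258.5, and Vsig4 was at control level on both arrays. Lymphatic endothelium also carries Pdpn. Of the 5 genes listed for it, 3 were 2-fold or more brighter on the mesothelial array, where 45.8% of all genes above the floor were. The 3 were Vegfc, Flt4 and Nrp2, and the list had a median of 2.07 and sums of 3304 against 1346. Vegfc encodes a secreted factor and is not specific to this endothelium. Vegfc was 8.75-fold higher from a probe set that can cross-hybridise, with a median of 1.62 over its 3 probe sets, and the list median was 1.62 without such probe sets. Flt4 was 4.20-fold higher, whereas Prox1 and Lyve1, which hepatoblasts and sinusoids also express, differed by 0.67 and 0.15, not of one sign in all 5 scalings. Blood endothelium also makes Vwf, and its markers had a median of 0.90, which was -0.18 with the hybridisation controls, and sums of 2421 against 1051. Of 7, 3 were past 2-fold on the mesothelial side, below the 45.8% of all genes, and 1 after subtracting the all-gene median. Of these Stab2 was 3.45-fold higher, Kdr differed by 1.01 with a sign that turned with the hybridisation controls, and Pecam1 read 84.9 against 102.9. Mast cell markers had 1 of 2 above the floor past 2-fold on the mesothelial side, Cpa3 at 177.4 against 50.2, with Fcer1a at control level on both arrays and sums of 614.7 against 355.8. Hepatoblast markers had a median of 0.63, not of one sign in all 5 scalings, and sums of 54552 against 36533. Of 5, 2 were past 2-fold on the mesothelial side, below the 45.8% of all genes, and 0 after subtracting the all-gene median. These were Hnf4a, 3.04-fold higher, and Dlk1, 2.55-fold higher, with a difference of 1.35 that was 2.81 on the probe set less prone to cross-hybridise. The part of each of these cell types in the values of Clec1b and the platelet genes was not tested, and the arrays do not show whether the platelet transcripts lay in mesothelial cells or in other cells of the sorted sample.

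Promoter sequences were compared because GATA and ETS factors are known regulators of megakaryocyte genes. The genes had been chosen with their differences known, and a link between motifs and differences was not tested. RefSeq windows of GRCm38.p6, from 250 bases before to 50 after the gene start, were at hand for 9 of the 10 genes, Rgs18 being the exception. Both strands were searched for the GATA motif AGATAA, also with T as its first letter or G as its last, and for the ETS motif AGGAAG, also with C as its first letter. Of the 9 windows, 5 held a GATA motif, where 29.8% of all 32851 windows did, and 5 held an ETS motif, where 46.5% did. Both kinds stood together in 3, those of Gp1bb, Gp5 and Pf4, and in 12.6% of all windows. The windows of Ppbp and Treml1 held neither, as did 36.4% of all windows. With 9 windows these counts are a description, and a match of letters is not a site at which a factor was shown to bind. The bases before the start are shown for Pdpn and Clec1b as the ligand and receptor genes, for Gp1bb as the platelet gene with the largest difference, and for Gp5 as the one with the most motifs. Each runs 5′ to 3′ on the gene's strand, with the motif letters in capitals, so that a motif on the opposite strand appears as its reverse complement. None of the matches in the 9 windows overlapped.
Pdpn (chr4:143299565-143299814, minus strand): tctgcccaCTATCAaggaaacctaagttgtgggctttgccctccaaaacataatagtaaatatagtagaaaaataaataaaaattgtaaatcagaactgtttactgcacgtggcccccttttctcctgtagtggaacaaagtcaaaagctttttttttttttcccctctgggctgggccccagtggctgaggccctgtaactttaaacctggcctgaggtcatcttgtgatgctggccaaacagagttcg
Clec1b (chr6:129397047-129397296, plus strand): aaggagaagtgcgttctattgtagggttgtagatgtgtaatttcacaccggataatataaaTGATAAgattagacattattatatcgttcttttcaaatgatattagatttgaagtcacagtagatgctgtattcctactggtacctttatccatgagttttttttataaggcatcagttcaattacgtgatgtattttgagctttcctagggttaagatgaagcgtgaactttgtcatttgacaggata
Gp1bb (chr16:18622404-18622653, minus strand): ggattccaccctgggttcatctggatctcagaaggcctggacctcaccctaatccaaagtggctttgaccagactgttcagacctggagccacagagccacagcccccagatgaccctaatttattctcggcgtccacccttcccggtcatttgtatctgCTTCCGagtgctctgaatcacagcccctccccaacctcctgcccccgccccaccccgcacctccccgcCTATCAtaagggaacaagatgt
Gp5 (chr16:30310782-30311031, minus strand): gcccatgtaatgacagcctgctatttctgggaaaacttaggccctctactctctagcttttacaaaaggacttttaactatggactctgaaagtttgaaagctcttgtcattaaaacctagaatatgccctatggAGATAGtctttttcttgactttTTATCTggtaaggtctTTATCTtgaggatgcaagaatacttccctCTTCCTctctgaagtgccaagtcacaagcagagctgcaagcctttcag

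Gp5 held 3 GATA motifs, which began at positions -115, -93 and -77, counted so that the first of the 50 bases after the start is 1, and an ETS motif at -48. Gp1bb held a GATA motif at -22 and ETS motifs at -90 and 21. Clec1b held 2 GATA motifs, at -189 and 38, and no ETS motif with these letters. Pdpn held a single GATA motif at -242. Itga2b held ETS motifs at -125 and -43 and Gp9 one at -16, and neither held a GATA motif with these letters. In Clec1b and Pf4 the letters AGATAA lay shortly after the start, at positions 38 and 37, and the 30 bases around them are shown for comparison, with the motif in capitals.
Clec1b (chr6:129397317-129397346, plus strand): ccttcactcagagctgaAGATAAgagagca
Pf4 (chr5:90772455-90772484, plus strand): actgggcaggcagtgaAGATAAaacgtgct

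**Figure D5:**
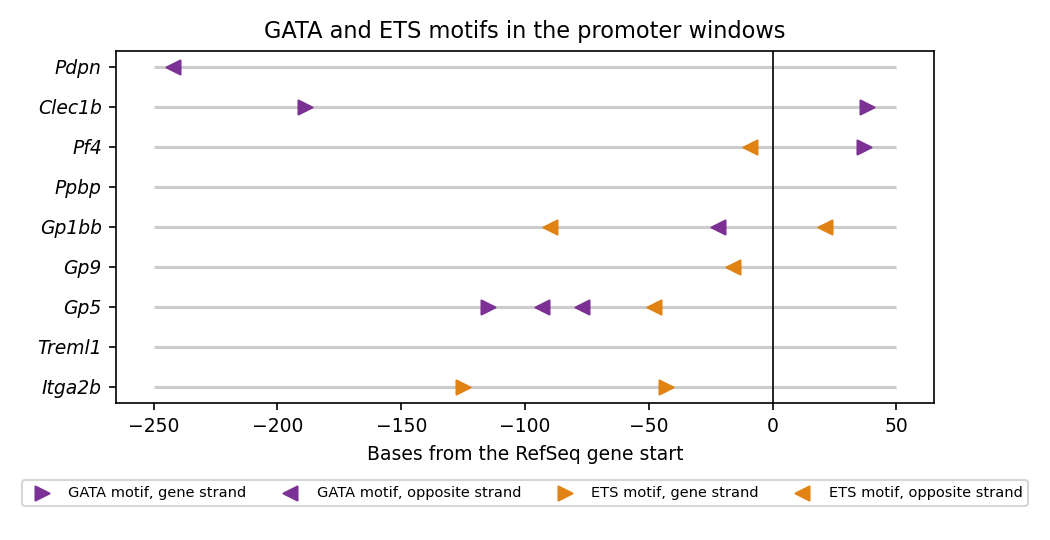
Positions of GATA and ETS motif letters in the promoter windows of 9 genes, in bases from the RefSeq gene start, with the arrow giving the strand. Gp5 holds 4 motifs, Gp1bb 3, Clec1b, Pf4 and Itga2b 2 each, Gp9 and Pdpn 1 each, and Ppbp and Treml1 none.

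The genes whose log2 values on both arrays lay nearest to those of Pdpn were Col6a2, Mmp2, Col6a1, Mgp and Gpm6a, at distances of 0.41 to 0.81 over the 2 arrays. They were 18.0-fold to 43.1-fold higher in mesothelial cells. Those nearest to Clec1b were Limd2, Sf3a2, Otub1, Ccnd2 and Nfia, at distances of 0.09 to 0.17, and they were 4.27-fold to 5.29-fold higher. No gene of the platelet set was among them. With 2 arrays, likeness of this kind compares 2 values per gene, and the intensity of different probe sets depends on their probes.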

How the data were processed

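Expression was measured on 1 Affymetrix mouse array of Pdpn+ mesothelial cells and 1 of liver cells, from 20 ng total RNA amplified and biotin-labelled with NuGEN kits, per the labels' protocols. The authors deposited linear intensities per probe set, as the range of the values shows. RMA and Partek are named, without version or step, per the submitters' processing notes. One free-text label contradicts the stated age, which was kept. Of 45101 probe sets, 64 are controls, 34945 carry 1 gene symbol in the platform annotation, 932 several and 9160 none. Only those with 1 symbol were used, and 34741 matched a RefSeq gene ID.

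Log2 was taken with Python 3.11.15 and pandas 2.3.3. Each gene was represented by the probe set whose log2 values had the highest mean. With 1 array per group no test was run, and the number of arrays limits the precision. Values at or under the highest bacterial control gave folds as bounds. The call rule was run on simulated arrays with planted differences beyond the threshold and less noise than the spread between probe sets. That checks how the rule works and does not show how reliable the calls in these data are. The genes and lists were chosen with earlier results of these data known. The genes named in a list are members, up to 3 with the largest difference and the one furthest the other way, and others were named after their values were seen. Reference genes (9 of 12 listed were measured) served for centring and had a median difference of 0.43. Centring subtracted each array's own median over them, a shift of 0.17, and left their median difference at 0.27. Promoters come from RefSeq for GRCm38.p6, no build being given in the sources used here for the arrays. Protein motifs planned for Clec1b and Pdpn were not searched.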

Additional observations from a re-analysis of the deposited data

How the results depend on the processing

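No paired analysis was possible because each group had 1 array, and no array could be left out. A difference or median counts as moved where it changed by more than the pooled SD between probe sets, 0.70. The count of genes was judged by the ratio of the counts instead, so a fall from 10 to 7 was not called moved. Quantile normalization gave 1.66 for the median over the 10 genes, 4.55 for Pdpn and 1.498 for Clec1b, and centring on the hybridisation controls gave 1.41, 4.20 and 1.18. Of the 10 genes, 7 to 10 passed the fold threshold under every alternative, also without the floor, with the floor raised to the 75th percentile, and at 4-fold. None of these 4 results moved when a gene's probe sets were summarised by their median, when those ending in _x_at or _s_at were dropped, or when low values were raised to the control level. The last 2 settings could change nothing here. None of the 12 probe sets of the 10 genes ends in _x_at or _s_at, and all read above the control level. The median could change only Gp1bb and Rgs18, the genes with 2 probe sets, so these settings say little about stability. Among genes past 2-fold as deposited, the difference turned sign for Btk (-0.0537), Kdr (-0.0696) and Sh2b3 (-0.073) with the hybridisation controls, and for Ets1 (-0.2344) without cross-hybridising probe sets, since its brightest probe set is one of those. For single genes and the lists, 1203 of 1550 values under an alternative changed by less than that SD. Centring shifts every gene and list median by the same amount: 0.64 on the array median, 0.17 on reference genes and 1.08 on the hybridisation controls. Whether a value passed the SD was thus fixed for those scalings, and the count does not measure how stable single genes are. Including differences under 2-fold, 66 of 194 genes and lists changed sign under at least 1 alternative, 60 of them with the hybridisation controls. When the median paired difference of these controls was removed instead, an alternative chosen after seeing the data, 2 of 194 changed sign.

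Over all genes as deposited, 5457 passed 2-fold on the mesothelial side and 460 on the liver side. These counts were 2867 and 1112 with median centring, 2498 and 1328 with quantile normalization, 1751 and 2146 with the hybridisation controls, 6584 and 756 without a floor, 3276 and 185 with a floor at the 75th percentile, and 1915 and 129 at 4-fold. The array medians of the 18 hybridisation controls differed by 1.08, but the median of their paired differences was 0.02. Removing the latter, an alternative chosen after seeing the data, gave 5358 and 475 and left the 10 genes at 10. Which scaling is right was not tested.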
